A study of Mus musculus with 4 samples.

Results

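Mixl1, Eomes, Evx1, Evx1os, Lhx1 and Gsc are genes of the primitive streak and of the mesendoderm that leaves it. They were taken by name from the deposited gene table, and all 6 were found among its 27998 genes. The study made neuromesodermal progenitors, cells that can form spinal cord or trunk mesoderm, from mouse pluripotent cells by different routes and sequenced single cells of each. For the 6 genes, the question was how much of a streak programme each route carries, in which cells it sits, and whether those cells also hold transcripts of T, the T-box factor also called Brachyury.

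There was 1 library of each of 4 groups. Epi-CE-T cells came from epiblast stem cells of a Bra:GFP reporter line, treated as the Epi-CE cells below, with the GFP-positive cells collected by sorting at 72 h. Epi-NMP cells were Epi-CE cells passaged once more and held for another 2 days in 20 ng/ml FGF2 and 3 µM of the WNT agonist CHIR99021. Epi-CE, for caudal epiblast, came from epiblast stem cells kept in 12 ng/ml FGF2 and 25 ng/ml activin A. Activin was then withdrawn, FGF2 was set to 20 ng/ml, and 3 µM CHIR99021 was present on the last of 3 days. ES-NMP came from E14Tg2A embryonic stem cells held for 2 days without added factors and then for 24 h in 3 µM CHIR99021. The GFP sort, the differentiation time and the starting cell type each belong to 1 library, so none of them can be told apart from the library itself.

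The authors marked barcodes TRUE or FALSE, and the 8722 TRUE barcodes of 10579 were used. They comprised 2109 Epi-CE-T, 1111 Epi-NMP, 2386 Epi-CE and 3116 ES-NMP cells, with median depths of 19189 to 22613.5 unique molecular identifiers (UMIs, counted transcripts) per cell. Levels are UMIs per 1000000 summed UMIs of a library (CPM), with exact Poisson 95% intervals. These and all other intervals below cover counting error only, since no group was repeated and no test between groups was possible. The intervals of levels and of level ratios treat every UMI as independent. They leave out the spread between cells, so they are too narrow where a few cells hold much of a gene. All cells were labelled as strain E14Tg2a, a line known to lack a working Hprt gene, yet Hprt stood at 138 CPM in Epi-CE-T and 204 CPM in ES-NMP, against 0.943 CPM in Epi-NMP and 0.801 CPM in Epi-CE. In that respect the Epi-CE-T and ES-NMP libraries went against the common label, and a difference of line cannot be told apart from the sort or the route. T, whose reporter was used for the sort, was at 382 CPM in Epi-CE-T and 431 CPM in unsorted Epi-CE, and 82.6% and 88.6% of their cells held a T UMI. Marker lists were checked against the labels. The 12 caudal epiblast and NMP markers summed to 109 CPM in Epi-CE-T, 679 CPM in Epi-NMP, 753 CPM in Epi-CE and 1033 CPM in ES-NMP, with Cdx4 at 0 in Epi-CE-T and Epi-CE. The level in Epi-CE-T went against its caudal epiblast label. The 10 node and notochord markers summed to 618 CPM in Epi-CE-T, 146 CPM in Epi-NMP, 525 CPM in Epi-CE and 165 CPM in ES-NMP.

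The primitive streak forms at the posterior of the epiblast under WNT and Nodal signals, and its cells switch on T and Eomes, a pair of T-box factors that open mesoderm and endoderm programmes. Position along the streak goes with fate: Evx1 marks the posterior streak, Mixl1 most of it, and Lhx1 and Gsc its anterior end, where the organizer and definitive endoderm arise. Neuromesodermal progenitors sit beside the late streak, keep T and lose most of the earlier factors.

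Mixl1, a paired-type homeobox factor of nascent mesendoderm, lies on the minus strand of mouse chromosome 1 at 180693043 to 180697034 (mm10 build). Eomes lies on chromosome 9 at 118478212 to 118486132 on the plus strand, and Lhx1, a LIM homeobox factor, on chromosome 11 at 84518284 to 84525535 on the minus strand. Gsc, or goosecoid, lies on chromosome 12 at 104471209 to 104473330 on the minus strand. Evx1, an even-skipped type homeobox factor, occupies chromosome 6 from 52313498 to 52318378 on the plus strand, next to the Hoxa cluster. Evx1os is annotated as an antisense RNA and occupies chromosome 6 from 52308389 to 52314832 on the minus strand. The start sites of the Evx1 and Evx1os genes are 1334 bases apart, and the genes overlap by 1335 bases, of which 73 are exonic in both. Whether the counting used strand is not given in the sources used here. It is therefore not known here whether reads of Evx1 and Evx1os within that overlap were kept apart.

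The promoter windows of Evx1 and Evx1os are shown because these neighbours lay on the same side of equality in each of the 4 comparisons of libraries below. Each window runs from 250 bases before the RefSeq start to 50 bases after it (RefSeq on GRCm38.p6, the same build as mm10). The Evx1 window is chr6:52313248-52313547 on the plus strand, and the Evx1os window is chr6:52314783-52315082 on the minus strand, so neither contains the other. Capitals mark matches to the motifs searched. A RefSeq entry was matched for 5 of the 6 genes.

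Evx1: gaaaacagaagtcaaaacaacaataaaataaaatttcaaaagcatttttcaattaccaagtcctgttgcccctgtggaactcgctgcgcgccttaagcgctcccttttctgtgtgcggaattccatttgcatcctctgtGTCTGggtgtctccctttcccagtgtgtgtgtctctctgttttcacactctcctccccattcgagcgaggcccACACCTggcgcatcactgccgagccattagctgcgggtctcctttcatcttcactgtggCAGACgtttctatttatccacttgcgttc

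Evx1os: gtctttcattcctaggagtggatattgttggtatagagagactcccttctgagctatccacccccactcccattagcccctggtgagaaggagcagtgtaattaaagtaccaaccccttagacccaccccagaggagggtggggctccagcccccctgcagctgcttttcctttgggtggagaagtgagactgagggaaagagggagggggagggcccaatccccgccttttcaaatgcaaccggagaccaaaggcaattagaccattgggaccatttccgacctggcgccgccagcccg

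The motifs searched on both strands were CTTTGA (TCF/LEF, the WNT effectors), AATCCACA (FOXH1), CAGAC (SMAD), AGGTGT (T-box core), TCACACCT (a longer T-box form that contains the core's reverse complement) and TAATNNNATTA (a homeodomain pair). The Evx1 window held 2 CAGAC matches and 1 AGGTGT match, and the Evx1os window held none of the 6 motifs. Of all 32851 promoter windows of this length, 49.6% held CAGAC and 13.7% held AGGTGT. The Lhx1 window held 1 CAGAC match, the Eomes window 1 TAATNNNATTA match, which 0.487% of all windows held, and the Gsc window none. The T window held 1 CTTTGA match and 1 AGGTGT match, and CTTTGA was found in 16.0% of windows. AATCCACA was found in 0.855% and TCACACCT in 1.28% of all windows, and neither in those of these genes. A match describes letters in a window and not a bound site.

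Across libraries, ES-NMP and Epi-CE carried most of the streak transcripts and Epi-CE-T little besides Gsc and Lhx1. The 6 genes summed to 11.3 CPM in Epi-CE-T, 30.1 CPM in Epi-NMP, 47.8 CPM in Epi-CE and 60.4 CPM in ES-NMP. Of the 24 levels of a gene in a library, 20 reached 1 CPM. The other levels were those of Mixl1, Eomes, Evx1 and Evx1os in Epi-CE-T.

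**Figure D1:**
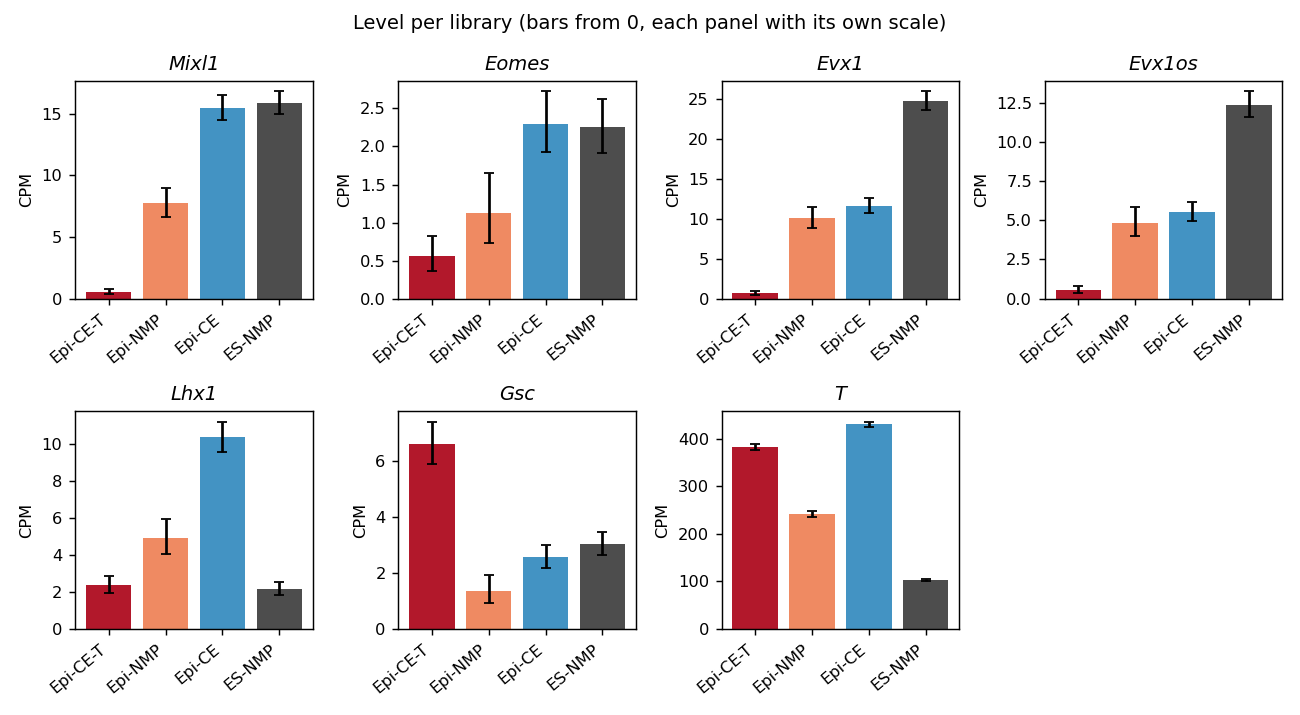
Level of each gene and of T in the 4 libraries, in CPM (y axis, from 0, a separate scale in each panel). Bars are 1 library each and error bars are exact Poisson 95% intervals. Mixl1, Evx1 and Evx1os are close to 0 in Epi-CE-T, Lhx1 is highest in Epi-CE, and Gsc is highest in Epi-CE-T.

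Mixl1 stood at 0.533 CPM in Epi-CE-T (interval 0.342 to 0.794), 7.73 CPM in Epi-NMP (6.61 to 8.97), 15.5 CPM in Epi-CE (14.5 to 16.5) and 15.9 CPM in ES-NMP (15.0 to 16.8). The Epi-CE and ES-NMP intervals overlapped, and the other neighbours in this order were apart. Its UMIs were concentrated: the richest 1% of cells held 44.5% of all Mixl1 UMIs in ES-NMP and 35.9% in Epi-CE, and a single ES-NMP cell held 45. By comparison, the richest 1% of ES-NMP cells held 10.5% of the T UMIs.

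Eomes was sparse everywhere, at 0.556 CPM in Epi-CE-T (0.360 to 0.820), 1.12 CPM in Epi-NMP (0.727 to 1.66), 2.30 CPM in Epi-CE (1.93 to 2.72) and 2.25 CPM in ES-NMP (1.92 to 2.63). The Epi-CE and ES-NMP intervals overlapped, as did those of Epi-CE-T and Epi-NMP. These levels rest on 25, 25, 135 and 161 UMIs in Epi-CE-T, Epi-NMP, Epi-CE and ES-NMP. The richest 1% of ES-NMP cells held 52.8% of them.

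Evx1, the posterior streak factor, stood at 0.689 CPM in Epi-CE-T (0.468 to 0.978), 10.1 CPM in Epi-NMP (8.79 to 11.5), 11.6 CPM in Epi-CE (10.8 to 12.5) and 24.7 CPM in ES-NMP (23.6 to 25.9). ES-NMP was therefore apart from the rest, and the Epi-NMP and Epi-CE intervals overlapped. Evx1os followed the same order, at 0.533 CPM in Epi-CE-T (0.342 to 0.794), 4.85 CPM in Epi-NMP (3.98 to 5.86), 5.51 CPM in Epi-CE (4.92 to 6.14) and 12.4 CPM in ES-NMP (11.6 to 13.2). There were 0.482 Evx1os UMIs per Evx1 UMI in Epi-NMP, 0.474 in Epi-CE and 0.500 in ES-NMP. In Epi-CE-T this figure was 0.774, with an interval of 0.435 to 1.36 that holds the values of the other libraries. Unlike Mixl1, Evx1 was spread over many cells, the richest 1% of ES-NMP cells holding 11.02% of its UMIs.

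Lhx1, which marks anterior mesendoderm and later the intermediate mesoderm, had another order. It stood at 2.38 CPM in Epi-CE-T (1.95 to 2.87), 4.94 CPM in Epi-NMP (4.06 to 5.96), 10.4 CPM in Epi-CE (9.56 to 11.2) and 2.17 CPM in ES-NMP (1.84 to 2.54). Only the Epi-CE-T and ES-NMP intervals overlapped. The ES-NMP signal was the most concentrated of any of the 6 genes in that library, with 84.5% of Lhx1 UMIs in the richest 1% of cells, 32 cells in all. In Epi-CE the richest 1% held 23.2%.

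Gsc, a repressor of the organizer and later the prechordal plate, was the only member highest in the sorted library. It stood at 6.62 CPM in Epi-CE-T (5.89 to 7.42), 1.35 CPM in Epi-NMP (0.909 to 1.92), 2.57 CPM in Epi-CE (2.18 to 3.02) and 3.03 CPM in ES-NMP (2.64 to 3.46). The Epi-CE and ES-NMP intervals overlapped, and the other neighbours in the order were apart. In Epi-CE-T a Gsc UMI was found in 8.30% of cells, with at most 7 UMIs in a cell.

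To compare detection at equal depth, every cell was thinned to 8000 UMIs, which none fell under. Any of the 6 genes was then found in 6.92% of Epi-CE-T, 18.5% of Epi-NMP, 22.7% of Epi-CE and 24.1% of ES-NMP cells. A Mixl1 UMI was found in 0.284%, 3.33%, 7.04% and 5.39% of Epi-CE-T, Epi-NMP, Epi-CE and ES-NMP cells thinned in this way, against 0.664%, 6.84%, 13.0% and 10.6% at full depth. For Evx1 the thinned shares were 0.284%, 7.20%, 6.79% and 14.4% in the same order, against 0.806%, 16.5%, 18.6% and 29.3% at full depth. Detection in cells taken to lack these genes was used as a measure of free RNA, though that they lack them was assumed. Among 217 neural-like ES-NMP cells, with a median of 20730 UMIs before thinning, a Mixl1 UMI was found in 0.461%, Evx1 in 3.23%, Evx1os in 1.84% and Gsc in 0.461%, and Eomes and Lhx1 in 0 of 217, which allows a share of up to 1.38%. Among 75 contractile smooth muscle-like ES-NMP cells, with a median of 26244 UMIs, Mixl1, Evx1 and Evx1os were each found in 1.33%, and Eomes, Lhx1 and Gsc in none, which allows up to 4.0%. The 76 such Epi-CE-T cells, with a median of 17149 UMIs, held Gsc in 7.89% and no UMI of the other members, which allows up to 3.95%. Since Gsc differed between Epi-CE-T clusters, as given below, its share there is no measure of free RNA. The thinned shares in Epi-CE-T were 0.284% each for Mixl1, Evx1 and Evx1os, and 0.379% for Eomes. These lie far under the limit of 3.95%, so 76 cells are too few to tell such shares from free RNA. The UMIs behind these shares were not spread evenly. The 37 Epi-CE-T cells, 1.75% of that library, that fell into clusters with under 50 Epi-CE-T cells held 14 of its 24 Mixl1, 22 of 31 Evx1, 14 of 24 Evx1os and 10 of 25 Eomes UMIs. Epi-NMP and Epi-CE held too few such cells, 5 and 16, for a comparison.

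The sorted Bra:GFP library, Epi-CE-T, was set against unsorted Epi-CE. The reporter line, the sort and the library cannot be told apart in this comparison. In the sorted library 5 of the 6 genes were lower by at least 2-fold and Gsc was higher by at least that much, while T hardly differed. Over all 13119 genes with at least 50 UMIs in the 2 libraries, 7.03% were lower and 8.39% higher by that measure. Mixl1 was 29.0-fold lower (interval 19.4 to 45.6), Evx1 16.8-fold lower (11.8 to 25.0) and Evx1os 10.3-fold lower (6.81 to 16.3). Lhx1 was 4.36-fold lower (3.54 to 5.40) and Eomes 4.14-fold lower (2.69 to 6.63). Gsc was 2.57-fold higher (2.11 to 3.15). Without the 37 Epi-CE-T cells of small clusters, a choice made after seeing the data, Mixl1 was 67.7-fold lower (36.6 to 142), Evx1 56.4-fold (29.5 to 124), Evx1os 24.1-fold (12.9 to 50.6) and Eomes 6.70-fold lower (3.92 to 12.3). Epi-CE kept all its cells in this setting. The cells left out were already known to be rich in these genes, so the folds could only rise. The T level in Epi-CE-T was 0.887 times that in Epi-CE (0.870 to 0.905). The median log2 ratio of the 6 genes was -2.75, beside 0.04 for all genes compared.

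The same held among cells that carried T transcripts. In thinned cells with a T UMI, Mixl1 was found in 0.318% of 1573 Epi-CE-T cells and 8.31% of 1866 Epi-CE cells, a level 50.2-fold lower (21.3 to 156). Evx1 was found in 0.318% of the Epi-CE-T and 7.50% of the Epi-CE cells with T, 24.0-fold lower (10.8 to 66.4), and Evx1os in 0.381% and 4.29%, 10.8-fold lower (5.05 to 27.7). Lhx1 was found in 2.10% and 8.31%, 4.82-fold lower in Epi-CE-T (3.37 to 7.08). Gsc was found in 5.02% of the Epi-CE-T and 1.77% of the Epi-CE cells with T, 2.72-fold higher (1.89 to 3.97). The Eomes ratio among these cells rests on 26 UMIs. T itself was equal among them, with a ratio of 1.03 (0.994 to 1.06).

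Some of the other genes of the streak and its signals were lower in Epi-CE-T too. Of 16 measured streak and early mesoderm partners of the 20 listed, 9 were at least 2-fold lower and none higher in Epi-CE-T, with a median log2 ratio of -1.54 and a sum of 709 CPM in Epi-CE-T against 1157 CPM in Epi-CE. T is itself on this list, at 382 CPM in Epi-CE-T and 431 CPM in Epi-CE. Fgf4, a streak FGF ligand, had no UMI in Epi-CE-T and 218 in Epi-CE, so it was at least 55.7-fold lower, counted against a floor of 3 UMIs per library. Wnt3a, a WNT ligand of the late streak, was 31.7-fold lower (18.8 to 58.4). Of 15 measured Nodal and Activin pathway genes, 7 were lower and none higher, with a median log2 ratio of -0.51. The sum of the list was 238 CPM in Epi-CE-T against 962 CPM in Epi-CE. Most of that difference was Fst, at 44.0 CPM in Epi-CE-T and 636 CPM in Epi-CE. Fst, an activin antagonist, was 14.5-fold lower (13.8 to 15.1) and the Nodal co-receptor Tdgf1 13.4-fold lower (11.1 to 16.3). Of 14 measured anterior streak, organizer and endoderm genes, 4 were higher and 4 lower. Shh, the signal of node and notochord, was 17.8-fold higher (15.7 to 20.2) and the BMP antagonist Chrd 5.72-fold higher (5.28 to 6.21), whereas Gata4, of early endoderm and heart, was 11.04-fold lower (4.52 to 35.0). Neural crest markers also differed between these libraries, summing to 87.7 CPM in Epi-CE-T and 21.1 CPM in Epi-CE, and their part in the member ratios was not tested.

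**Figure D2:**
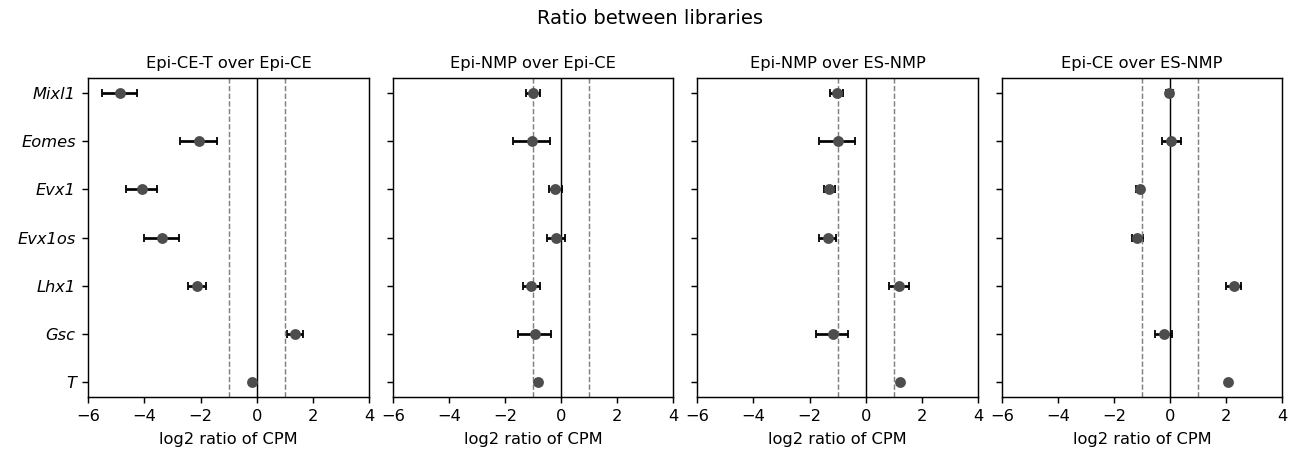
Log2 ratio of CPM (x axis) of each gene and of T in the 4 comparisons of libraries. Points are ratios, bars their exact 95% counting intervals, and dashed lines mark 2-fold. In Epi-CE-T over Epi-CE, Mixl1 (29.0-fold lower) lies farthest left and Gsc (2.57-fold higher) is the only gene past the right line.

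Epi-NMP, passaged from Epi-CE cells and held for 2 more days in FGF2 and CHIR99021, was set against Epi-CE. The libraries hold different cells, so no cell was followed over time. Mixl1, Eomes and Lhx1 were at least 2-fold lower, and no member was higher by that much. Over 12628 genes compared, 13.7% were lower and 5.59% higher. Lhx1 was 2.10-fold lower (1.71 to 2.59), Eomes 2.05-fold lower (1.33 to 3.28) and Mixl1 2.01-fold lower (1.70 to 2.37), each interval reaching below 2. Leaving in all barcodes regardless of the authors' mark gave a Mixl1 level 1.63-fold lower and a Gsc level 2.27-fold lower, so that Gsc took the place of Mixl1 among the 3 genes past 2-fold. Gsc had a ratio 1.91-fold lower (1.28 to 2.93), under the measure used. Evx1, with a ratio 1.15-fold lower (0.991 to 1.35), and Evx1os, with one 1.13-fold lower (0.910 to 1.42), had intervals that contain equality. T was 1.79-fold lower (1.74 to 1.84). The median log2 ratio of the 6 genes was -0.97, beside -0.01 for all genes compared.

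Of 17 measured streak and early mesoderm partners, 6 were at least 2-fold higher in Epi-NMP and 3 lower. Mesp2 and Mesp1, basic helix-loop-helix factors of mesoderm, were 25.1-fold (14.7 to 46.1) and 8.81-fold (6.72 to 11.7) higher, while the ligand Wnt8a was 19.3-fold lower (14.7 to 25.7). Of 15 Nodal and Activin pathway genes, 7 were lower and none higher, with a median log2 ratio of -0.67. The sum of the list was 224 CPM in Epi-NMP against 962 CPM in Epi-CE. Most of that difference was Fst, at 17.3 CPM in Epi-NMP and 636 CPM in Epi-CE. The Nodal antagonist Lefty1 was 43.9-fold lower (32.9 to 60.0), and Tdgf1, which had no UMI in Epi-NMP, was lower by at least 256-fold. Of 13 anterior streak, organizer and endoderm genes, 5 were lower and 1 higher. The somite marker sum was 88.9 CPM in Epi-NMP against 17.7 CPM in Epi-CE, and that of paraxial mesoderm markers was 509 CPM in Epi-NMP against 282 CPM in Epi-CE. Their part in the member ratios was not tested.

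The epiblast stem cell and embryonic stem cell routes to progenitors were set against each other as Epi-NMP over ES-NMP. Mixl1, Eomes, Evx1, Evx1os and Gsc were lower in Epi-NMP by at least 2-fold and Lhx1 was higher. Over 12949 genes compared, 11.9% were lower and 7.48% higher. Evx1os was 2.55-fold lower (2.09 to 3.14), Evx1 2.46-fold lower (2.14 to 2.84), Gsc 2.25-fold lower (1.53 to 3.42), Mixl1 2.05-fold lower (1.75 to 2.42) and Eomes 2.00-fold lower (1.31 to 3.19). Lhx1 was 2.28-fold higher (1.77 to 2.93), and T 2.35-fold higher. ES-NMP held naive pluripotency markers at a sum of 1764 CPM, against 31.3 CPM in Epi-NMP. Without the ES-NMP cells of naive pluripotent-like and neural-like clusters, a choice made after seeing the data, Evx1 was 3.31-fold lower and Mixl1 2.81-fold lower in Epi-NMP, and Lhx1 had a ratio 1.64-fold higher, under the 2-fold measure.

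Of 17 measured streak partners, 7 were higher and 5 lower in Epi-NMP than in ES-NMP, among them Mesp1 at 13.0-fold higher and Wnt8a at 18.2-fold lower. Of 15 Nodal and Activin pathway genes, 7 were lower and 2 higher. Furin, a convertase that matures Nodal, was 3.59-fold higher. Tdgf1 and the TGF-beta ligand Gdf3 had no UMI in Epi-NMP and were lower by at least 448-fold and 356-fold. Of 11 anterior streak, organizer and endoderm genes, 6 were higher and 3 lower, Chrd being 20.3-fold higher. The median log2 ratio of the 6 streak genes was -1.10, beside 0.02 for all genes compared.

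Epi-CE against ES-NMP compared both routes, ES-NMP at 72 h and Epi-CE after 3 days, without a total in hours on its label. Here 3 of the 6 genes passed 2-fold: Lhx1 was 4.79-fold higher in Epi-CE (4.01 to 5.75), Evx1 2.13-fold lower (1.95 to 2.33) and Evx1os 2.25-fold lower (1.98 to 2.56). Over 13553 genes compared, 11.3% were higher and 8.2% lower. Mixl1, with a ratio of 0.977 (0.894 to 1.07), Eomes, with 1.02 (0.808 to 1.29), and Gsc, with 0.849 (0.685 to 1.05), had intervals that contain equality, while T was 4.21-fold higher. Equal Mixl1 levels thus accompanied unequal T levels. Without the naive pluripotent-like and neural-like ES-NMP cells, the ratios were 1.40-fold lower for Mixl1, 2.87-fold lower for Evx1 and 3.44-fold higher for Lhx1 in Epi-CE.

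Among the lists, the organizer genes stood on the side of Lhx1. Of 13 measured anterior streak, organizer and endoderm genes, 8 were higher in Epi-CE than in ES-NMP and none lower, with a median log2 ratio of 1.89 beside 0.03 for all genes. Foxa2, a forkhead factor of node and endoderm, was 28.2-fold higher (22.8 to 35.2). Of 18 streak partners, 4 were higher and 4 lower. Aplnr, the apelin receptor of early mesoderm, was 14.2-fold higher, and Fgf4 3.29-fold lower. Of 16 Nodal and Activin pathway genes, 3 were higher and 4 lower, Gdf3 being 18.4-fold lower. Epi-CE is the denominator of the first 2 comparisons and ES-NMP of the last 2, so the comparisons share libraries and are not independent of each other.

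Co-detection with T was measured within each library, in cells thinned to 8000 UMIs. It was clearest for Mixl1, Evx1 and Evx1os in ES-NMP, the library with the lowest T level. In that library 32.4% of cells held a T UMI, against 70.2% of cells with Mixl1, 63.4% with Evx1 and 66.2% with Evx1os. Mixl1 was found in 11.7% of 1009 ES-NMP cells with T and 2.37% of 2107 without, a level ratio of 4.84 (3.87 to 6.09). Evx1 was found in 28.1% of cells with T and 7.78% without, a ratio of 4.33 (3.63 to 5.18). Evx1os was found in 17.6% and 4.32%, a ratio of 4.20 (3.30 to 5.37). Gsc was found in 2.38% of ES-NMP cells with T and 1.19% without, a ratio of 2.03 (1.24 to 3.33). Of 10718 genes compared, 1.36% were at least 2-fold higher in ES-NMP cells with T and 2.88% lower.

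The first 3 of these ratios stayed past 2-fold under every other setting tried, at 3.21 to 6.30 for Mixl1, 2.85 to 5.52 for Evx1 and 2.83 to 5.16 for Evx1os. The Gsc ratio ranged from 1.34 to 2.56. Eomes was found in 1.68% of ES-NMP cells with T and 1.14% without, on 49 UMIs, and Lhx1 in 0.991% and 0.854%, on 48 UMIs. Both were under the 50 UMIs asked of a call.

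In Epi-CE, where 78.2% of cells held T, Mixl1 and Lhx1 were the members past 2-fold, and their ratios depended on which UMIs the thinning drew. Mixl1 was found in 8.31% of 1866 Epi-CE cells with T and 2.50% of 520 without, a ratio of 3.46 (2.28 to 5.49). Another random draw gave 1.29, and keeping every UMI gave 3.18. The interval of the main value does not contain the value of the other draw. Lhx1 was found in 8.31% of cells with T and 3.08% without, a ratio of 3.59 (2.16 to 6.40), and the other settings gave 1.89 to 5.83. Evx1 was found in 7.50% and 4.23%, a ratio of 1.99 (1.29 to 3.18), with other settings at 1.63 to 3.08. Of 10391 genes compared, 2.81% were higher and 0.905% lower. Eomes was found in 1.13% of cells with T and 1.92% without, and Gsc in 1.77% and 0.577%, both on under 50 UMIs.

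**Figure D3:**
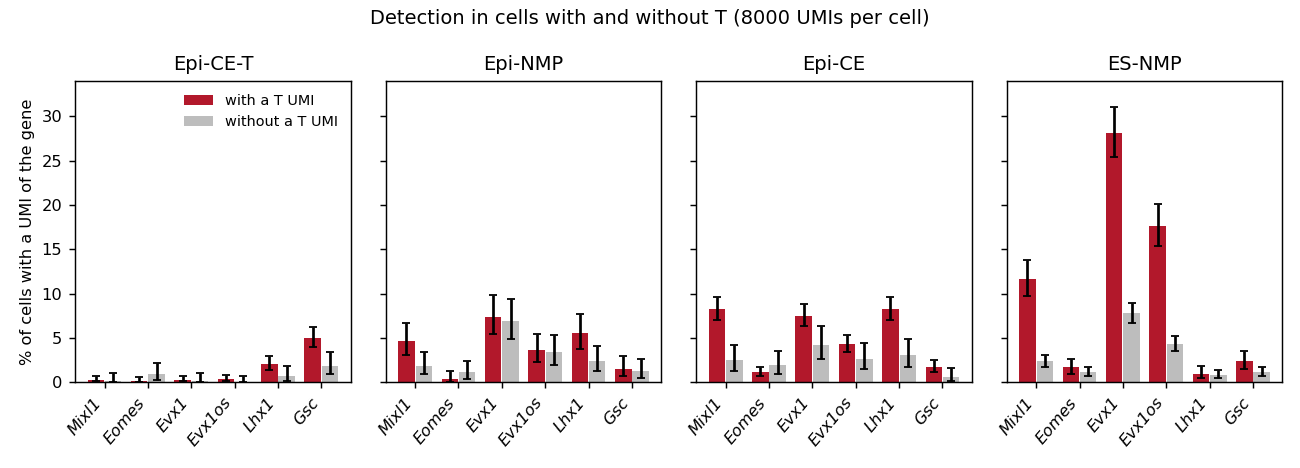
Share of cells with a UMI of each gene (y axis, percent) among cells with a T UMI (red) and without one (grey), all thinned to 8000 UMIs. Error bars are exact 95% Clopper-Pearson intervals. The red and grey bars stand farthest apart for Mixl1, Evx1 and Evx1os in ES-NMP.

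Gsc was the member past 2-fold in Epi-CE-T, found in 5.02% of cells with T and 1.87% without, a ratio of 2.29 (1.33 to 4.25). Another draw gave 1.62 and thinning to 4000 UMIs gave 1.11. Of 10265 genes compared there, 5.06% were higher in cells with T and 2.35% lower. In Epi-NMP it was Mixl1, found in 4.66% of 579 cells with T and 1.88% of 532 without, a ratio of 2.76 (1.51 to 5.32). Another draw gave 1.99 and thinning to 4000 UMIs gave 1.14. Of 8581 genes compared in Epi-NMP, 2.96% were higher and 0.862% lower. Lhx1 was found in 5.53% of Epi-NMP cells with T and 2.44% without, a ratio of 1.99 (1.11 to 3.70). Evx1 was found in 7.43% of Epi-NMP cells with T and 6.95% without, a ratio of 1.06 (0.675 to 1.67), so in this library it was found about as often with T as without.

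Within single ES-NMP clusters the association of Mixl1 with T ranged widely. In the 3 clusters of caudal epiblast or primed epiblast type, the ratio of Mixl1 levels in cells with T to those without was 10.1 (4.15 to 29.8), 11.4 (5.62 to 26.9) and 7.62 (2.51 to 31.0). In the paraxial mesoderm-like cluster, which held the highest Mixl1 level, it was 1.13 (0.811 to 1.56). Evx1 had ratios of 2.12 (1.49 to 3.03), 2.57 (1.97 to 3.40), 1.76 (0.967 to 3.23) and 1.48 (0.766 to 2.90) in the same 4 clusters. In a naive pluripotent-like cluster with 53 cells with T and 616 without, the ratio was 23.2 for Evx1 on 6 UMIs (3.33 to 257) and 6.97 for Mixl1 on 8 UMIs.

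**Figure D4:**
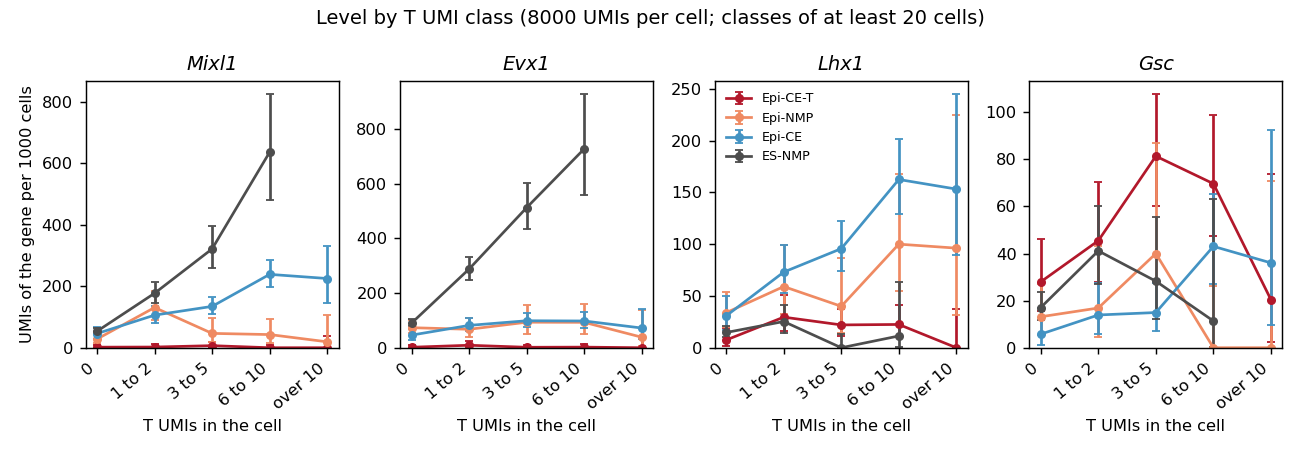
UMIs of Mixl1, Evx1, Lhx1 and Gsc per 1000 cells (y axis) by the number of T UMIs in the cell (x axis, low to high), in cells thinned to 8000 UMIs. Points are classes of at least 20 cells of 1 library in the main random draw, and bars their exact Poisson 95% intervals. In ES-NMP, Mixl1 and Evx1 stand at 53.6 and 90.2 in cells without T and at 636 and 727 in cells with 6 to 10 T UMIs.

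The level of T in a cell went with more Mixl1 and Evx1 in ES-NMP. ES-NMP cells with 0, 1 to 2, 3 to 5 and 6 to 10 T UMIs held 53.6, 177, 322 and 636 Mixl1 UMIs per 1000 cells. The same classes held 90.2, 288, 512 and 727 Evx1 UMIs per 1000 cells. The class above 10 T UMIs held 6 cells and is not read. In Epi-CE, cells with 0, 1 to 2, 3 to 5, 6 to 10 and over 10 T UMIs held 46.2, 106, 135, 239 and 225 Mixl1 UMIs per 1000 cells. Lhx1 in those Epi-CE classes stood at 30.8, 73.0, 95.7, 162 and 153. Evx1 stood at 46.2, 81.7, 98.7, 97.8 and 72.1, a flatter course. In Epi-NMP, Mixl1 peaked in cells with 1 to 2 T UMIs, at 131 per 1000 cells, and stood at 28.2 in cells without T and 19.2 in those with over 10. In Epi-CE-T, Gsc stood at 28.0, 45.5, 81.4, 69.7 and 20.4 per 1000 cells over the 5 classes. All these classes come from the main random draw and were not recounted in another. For Mixl1 in Epi-CE and Epi-NMP and Gsc in Epi-CE-T, the difference from cells without T moved with the draw, as given above.

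Cells were clustered without the 6 genes and T, so the clusters do not rest on them directly, and their levels by cluster are given as a description. Names come from marker lists, and clusters that did not meet the whole naming rule given below are left unnamed. Some unnamed clusters held several markers of a class but none among their top genes. Of the 22 clusters, 17 had over 95% of their cells from 1 library, and the others 44.2% to 77.6%, among them the ES-NMP paraxial-like cluster described next, with 72.2% ES-NMP cells. Much of the Mixl1 sat in paraxial and presomitic mesoderm-like clusters in each of the 3 libraries that held it. In Epi-NMP such a cluster of 231 cells had 19.6 CPM and 61.0% of the library's Mixl1 UMIs. In Epi-CE a cluster of 211 cells, 8.84% of the library, had 84.6 CPM (76.9 to 92.9) and 48.8% of them. In ES-NMP a cluster of 130 cells, 4.17% of the library, had 168 CPM (154 to 184) and 42.4% of them.

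Other members were found in these clusters to a degree that differed by library. The Epi-NMP cluster held 88.0% of that library's Eomes UMIs, 22 of 25, and the Epi-CE cluster 15.6%. The ES-NMP cluster held 67.1% of the Lhx1 UMIs at 36.4 CPM (29.8 to 44.1), 35.5% of the Gsc UMIs at 27.0 CPM, and 25.5% of the Eomes UMIs at 14.4 CPM (10.3 to 19.5). T in that cluster was 106 CPM.

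Most Evx1 and Evx1os UMIs in ES-NMP lay in the more numerous caudal epiblast and NMP-like cells. A cluster of 762 such cells, 24.5% of the library, had Evx1 at 56.7 CPM (53.1 to 60.4), 53.8% of its UMIs, and Evx1os at 33.5 CPM, 63.5% of its UMIs. T was 228 CPM there, Mixl1 24.0 CPM, and Lhx1 0.536 CPM. A second such cluster of 802 cells had Evx1 at 24.0 CPM, Evx1os at 9.94 CPM, Mixl1 at 6.08 CPM and T at 96.7 CPM. The paraxial-like cluster of 130 cells stood above that second cluster, with Evx1 at 42.0 CPM (34.8 to 50.3) and Evx1os at 19.6 CPM. It held 6.78% of the Evx1 and 6.33% of the Evx1os UMIs of ES-NMP. The naive pluripotent-like cluster of 669 cells had Evx1 at 2.48 CPM, Mixl1 at 1.40 CPM and Eomes at 2.22 CPM, the last being 21.7% of the library's Eomes UMIs. A primed epiblast-like cluster of 404 cells held 28.0% of them at 4.53 CPM.

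In Epi-CE the largest share of Lhx1, 49.0%, came from an unnamed cluster of 913 cells in which T was 564 CPM and Lhx1 15.8 CPM. The paraxial-like Epi-CE cluster held another 28.6%, at 33.2 CPM. Eomes was elsewhere, with 29.6% of its UMIs in an unnamed cluster of 122 cells at 9.63 CPM (6.88 to 13.1). The primed epiblast-like Epi-CE cluster of 555 cells had Mixl1 at 1.34 CPM and Lhx1 at 1.20 CPM.

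In Epi-CE-T, Gsc was not where T was highest. A node or notochord-like cluster of 553 cells had T at 763 CPM and Gsc at 3.82 CPM. A second node or notochord-like cluster of 525 cells had Gsc at 9.87 CPM, 41.9% of its UMIs, and an unnamed cluster of 519 cells had 12.5 CPM, 37.6% of them. That unnamed cluster held the same 6 node or notochord markers as the second cluster, but none among its top 10 genes by fold. An unnamed cluster of 399 cells with T at 37.3 CPM had Gsc at 0.335 CPM, and the smooth muscle-like cluster of 76 cells had 16.0 CPM (10.2 to 23.8). In Epi-NMP, Evx1 was spread over its clusters, with 50.9% of its UMIs in an unnamed cluster of 447 cells at 11.1 CPM. Lhx1 in Epi-NMP was 9.36 CPM in an unnamed cluster of 257 cells in which T was 722 CPM. This cluster held 5 node or notochord markers, again with none among its top 10 genes.

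**Figure D5:**
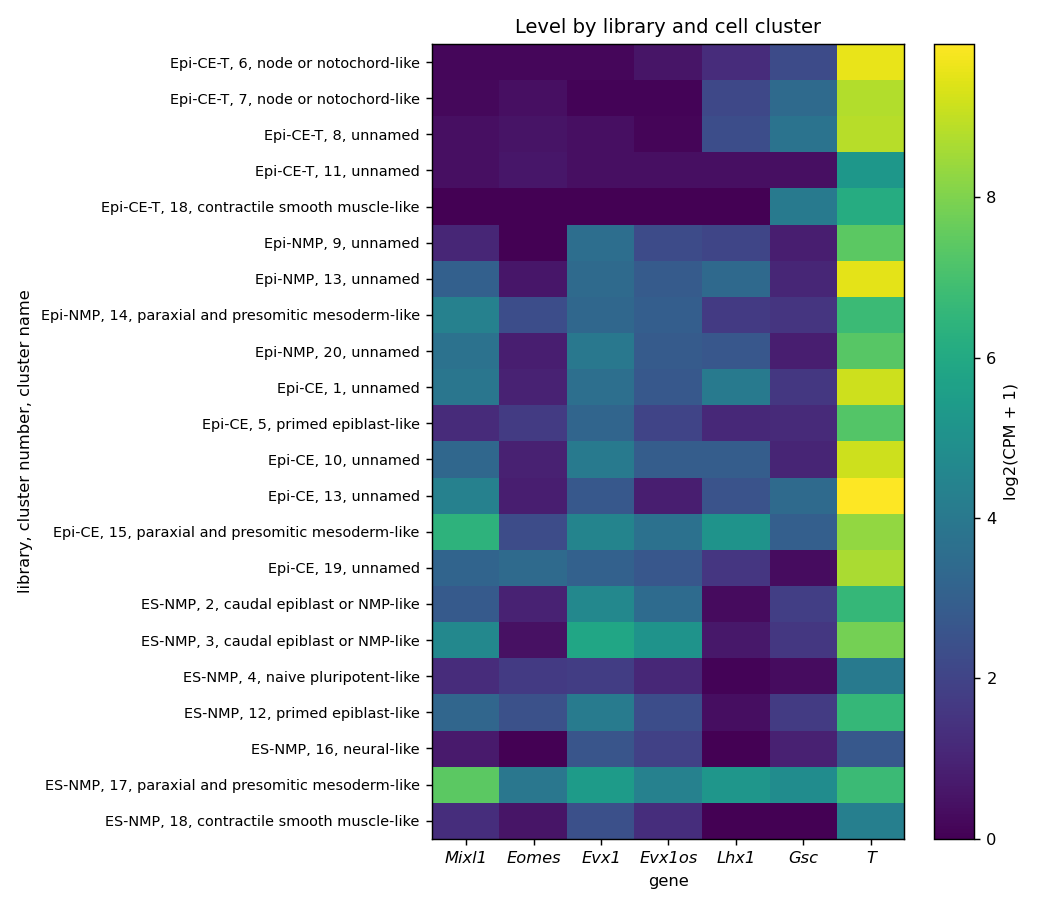
Level of the 6 genes and of T, as log2(CPM + 1) in colour, in each of the 22 groups of at least 50 cells of 1 library and 1 cluster (rows, with the cluster's number and name). Mixl1 is brightest in the paraxial and presomitic mesoderm-like row of ES-NMP (168 CPM), and Evx1 and Evx1os in a caudal epiblast or NMP-like row of ES-NMP (56.7 and 33.5 CPM).

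A definitive endoderm-like cluster was too small for levels but held all 6 genes in a few cells. Its 10 ES-NMP cells included 8 with Lhx1, 7 with Gsc, 7 with Eomes and 5 each with Mixl1, Evx1 and Evx1os. They carried 33 of the 155 Lhx1 UMIs and 26 of the 217 Gsc UMIs of the whole ES-NMP library. Its 20 Epi-CE cells included 7 with Gsc and 6 with Lhx1, carrying 29 and 16 UMIs.

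Cells with several of the genes were rare after thinning. In ES-NMP, 151 cells held 2 of the 6 genes, 33 held 3, and 10 held 4 or more. In Epi-CE, 87 cells held 2 and 15 held 3. In ES-NMP, Mixl1 and Evx1 were found together in 68 cells, 2.82 times the 24.2 that the product of their shares gives (interval of the ratio 2.19 to 3.56). In Epi-CE they were together in 28 cells, 2.45 times the product (1.63 to 3.54). Mixl1 and Lhx1 met in 14 Epi-CE cells, 1.16 times the product (0.636 to 1.95). In ES-NMP they also met in 14 cells, 9.27 times the product (5.07 to 15.5), though that product was only 1.51 cells. Evx1 and Evx1os met in 107 ES-NMP cells, 2.77 times the product (2.27 to 3.33). Within the ES-NMP cluster richest in them this figure was 1.43, with 77 cells against 53.8. At least 5 cells by the product were asked of a comparison, which Mixl1 and Lhx1 in ES-NMP did not reach. Other ES-NMP pairs under that limit ranged from 1.13 times the product for Eomes and Evx1os to 25.0 times for Lhx1 and Gsc. In Epi-CE-T and Epi-NMP no pair reached 5 cells by the product, so none was compared.

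Likeness between genes was described by Pearson's r of log2(CPM + 1) over the 22 groups of library and cluster, among 7164 genes that reached 20 CPM in a group. These groups share libraries and carry no test. Evx1 and Evx1os were most like each other (r = 0.951), and both were next most like Hoxb1, a Hox factor of the early streak and hindbrain (0.914 and 0.931), and Cdx1, a caudal-type homeobox factor (0.904 and 0.862). The genes most like Mixl1 were Hoxb1 (0.854), Rftn1 (0.819), a raftlin gene, and Tbx6 (0.810), the T-box factor of presomitic mesoderm. Those most like Lhx1 were Fryl (0.829), Dll3 (0.815), a Notch ligand of presomitic mesoderm, and Aplnr (0.808). Gsc was most like Pdlim4 (0.794), Prdx4 (0.787) and Lrig3 (0.781), and Eomes was most like Trim54 (0.745), Exoc6b (0.728) and Phlda2 (0.692). The r with T was 0.588 for Lhx1, 0.348 for Gsc, 0.263 for Mixl1, 0.0876 for Evx1os, 0.0623 for Evx1 and 0.0304 for Eomes. Over these groups, then, the member most like T was Lhx1.

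The cells that held a member were described by their other genes, in the library with most such cells. For Mixl1 these were ES-NMP and Epi-CE, with 168 cells each. In the ES-NMP cells Cited1, a transcriptional coregulator, was at 193 CPM in cells with Mixl1 and 35.3 CPM in cells without, 5.46-fold higher (4.73 to 6.28). The annexin partner S100a10 was 3.93-fold higher, Fgf8 3.73-fold and Wnt3a 3.47-fold. Of the streak partners 8 of 14 were at least 2-fold higher, of the paraxial mesoderm markers 7 of 8, and 9 of 10 naive pluripotency markers were lower, while 2.3% of all genes were higher and 6.62% lower. The streak partner and paraxial lists share genes, among them Tbx6, Dll1 and Rspo3, so their counts are not separate. Genes with no UMI in cells with Mixl1 were ranked as if they had 3, so they may lie lower than the genes named. By that ranking the lowest were Folr1, a folate receptor, Zfp534 and Prph, the neurofilament-like peripherin, each with 1 UMI in cells with Mixl1. The interval of the Folr1 ratio was wide, at 0.00178 to 0.398. The Epi-CE cells with Mixl1 had other leading genes. Lmo2, a LIM-only cofactor of blood and vessel precursors, was at 166 CPM in Epi-CE cells with Mixl1 and 34.4 CPM in cells without, 4.82-fold higher (4.11 to 5.63). Igfbp4, which binds insulin-like growth factors, was 4.30-fold higher, the Hox factor Hoxb2 3.37-fold, Cited1 3.02-fold and Fam212a 2.84-fold. Of the streak partners 4 of 14 were higher in them and of the paraxial markers 4 of 8, with 1 of the 8 lower, while 1.41% of all genes were higher and 4.12% lower. Sncb, a synuclein gene, and Lbh had 1 UMI and Smim1 had 2 UMIs in these cells. Whether the profiles of the 2 libraries differ was not tested.

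In the 448 ES-NMP cells with Evx1, Fgf8, the FGF ligand of the caudal epiblast, was 3.68-fold higher (3.33 to 4.07), T 3.20-fold, Hes7, a segmentation clock repressor, 3.02-fold, Hoxaas3 2.92-fold and the WNT enhancer Rspo3 2.87-fold. Hoxaas3 is an antisense RNA of the Hoxa cluster, so the strand reservation holds for it as well. Of the caudal epiblast and NMP markers 6 of 12 were higher, and 9 of 10 naive markers were lower, against 1.18% higher and 4.24% lower over all genes. Folr1, Manba, a lysosomal mannosidase, and Cryab, a small heat shock protein, were lowest by the same ranking, with 1 UMI each. The 269 ES-NMP cells with Evx1os shared this profile, with Wnt3a 4.14-fold, Hes7 3.85-fold, Fgf8 3.34-fold, Hoxaas3 3.14-fold and Rspo3 3.03-fold higher. In them 8 of 12 caudal epiblast and NMP markers were higher, against 1.37% higher and 5.43% lower over all genes. Mageb16, the pluripotency factor Nr0b1 and the adhesion molecule Pecam1 were lowest by that ranking, with 1 UMI each.

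The 171 Epi-CE cells with Lhx1 carried Lefty1 at a 2.82-fold higher level (2.50 to 3.17), Aplnr at 2.74-fold, the cytokine signalling inhibitor Socs3 at 2.54-fold, Dll3 at 2.30-fold and Fam212a at 2.24-fold. Of the paraxial markers 7 of 8 were higher and 1 lower, and of the Nodal and Activin genes 5 of 13 were higher, against 1.71% higher and 3.61% lower over all genes. Ctgf, a YAP target, Vgf, a secreted neuropeptide precursor, and Mtfr2 were lowest by the ranking used, with 1 UMI each in cells with Lhx1. The 89 Epi-CE-T cells with Gsc had the WNT antagonist Dkk1 at 95.5 CPM, against 23.2 CPM in cells without Gsc, 4.12-fold higher (3.13 to 5.34). Bmp2, a BMP ligand, was 3.37-fold higher, Irx3, an Iroquois homeobox factor, 3.10-fold, and the hormone precursor Pomc 3.03-fold. Of the organizer and endoderm genes 2 of 8 were higher, and of the node and notochord markers 0 of 8, against 1.71% higher and 6.21% lower over all genes. Car2, a carbonic anhydrase, was 13.2-fold lower on 4 UMIs, and the prostaglandin synthase Ptgds and Tmem41a had 1 UMI each in cells with Gsc.

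No library reached 50 thinned cells with Eomes: ES-NMP held 41 and Epi-CE 31. Only sums over marker lists were therefore set side by side, a choice made after seeing the data. The organizer and endoderm list was 5.40-fold higher (4.27 to 6.77) in ES-NMP cells with Eomes than in those without, on 82 UMIs in the cells with Eomes, and the definitive endoderm list was 2.57-fold higher. Of the 10 definitive endoderm-like ES-NMP cells above, 7 held Eomes at full depth, and their part in these ratios was not tested. The primed epiblast list was 2.04-fold higher (1.82 to 2.27) in ES-NMP cells with Eomes and 2.03-fold higher (1.71 to 2.40) in Epi-CE cells with it. In Epi-CE the ratio of the organizer list was 1.60 (1.22 to 2.07). The organizer list shares genes with the definitive endoderm list, such as Sox17 and Hhex, and with the primed list, such as Otx2, so these ratios are not separate. The streak partner list had ratios of 0.929 (0.811 to 1.06) in ES-NMP and 0.963 (0.855 to 1.08) in Epi-CE, intervals that contain equality.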

How the data were processed

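Single cells of 4 libraries were profiled on the 10x platform as polyadenylated RNA, with 8700 cells loaded per library. The authors deposited a table of raw UMI counts, genes by barcodes, made with Cell Ranger 1.3.1 and Seurat 2.0 on mm10 per the submitters' processing notes, and a TRUE or FALSE mark per barcode whose meaning no source used here gives. FALSE barcodes were 57.7% of those in Epi-NMP and 3.24% to 5.23% elsewhere, and 42 barcode sequences occurred in more than 1 library. Depth, as summed UMIs of TRUE barcodes, was 44990488 in Epi-CE-T, 22261452 in Epi-NMP, 58663735 in Epi-CE and 71563029 in ES-NMP, so 3 UMIs, the limit that a count of 0 allows, were 0.0667, 0.135, 0.0511 and 0.0419 CPM.

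The 6 genes and all gene lists were chosen with earlier results of these data known. Levels were summed per library, and shares were given Clopper-Pearson intervals at the 95% level. Ratios were given exact conditional binomial intervals and tested on simulated Poisson sums of libraries, which hold no concentration of UMIs in cells. A gene was called at 2-fold with at least 50 UMIs over both sides. Detection and co-detection used cells thinned to 8000 UMIs. With 1 library a group, no p-value was computed. Clusters were made in Python 3.11.15 with scanpy 1.11.5 and leidenalg 0.10.2 without the 6 genes and T (scaling to 10000, 2000 variable genes, 30 components, 15 neighbours, resolution 1.0). A cluster was named from at least 3 markers at 5 CPM and 2-fold, with 1 among its top 10 genes by fold and no other class ahead. Scrublet marked 55 of 8722 cells (0.631%) as doublets. These were kept, and an alternative left out the 5% with the highest scores.

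Besides the 6 genes and T, genes were named by rule. These were the 2 list genes farthest in each direction per comparison, the 3 of highest r per member, and, in the library with most cells of a member (at least 50), the 5 highest and 3 lowest ratios among genes with 100 thinned UMIs. For the highest, a UMI in 25% of the member's cells was asked. For the lowest, a gene with no UMI in the member's cells was counted at 3 UMIs. It could therefore rank behind a gene that had a UMI. Members and ribosomal, mitochondrial, Gm and Rik genes were left out, and an item the rule picked is not reported here. Coordinates come from GENCODE M21. Alternatives were TMM (edgeR 4.0.16) and DESeq2 1.42.0 scaling of the sums, all barcodes, other depths, draws, thresholds and minimums, cells of middle depth, and means of per-cell CPM.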

Additional observations from a re-analysis of the deposited data

Results flagged for a closer look

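Barcodes that the authors marked FALSE entered the comparisons only where all barcodes were kept as an alternative, and the 6 genes were nonetheless found in them above the 3 UMIs that a count of 0 allows. These barcodes were shallower, with median depths of 7543 UMIs in Epi-CE-T, 4720 in Epi-NMP, 7806 in Epi-CE and 6982 in ES-NMP. The 1513 FALSE barcodes of Epi-NMP held 109 Mixl1, 6 Eomes, 57 Evx1, 40 Evx1os, 44 Lhx1 and 4 Gsc UMIs. The 172 of ES-NMP held 78 Mixl1, 7 Eomes, 45 Evx1, 18 Evx1os and 11 Gsc UMIs. The 80 of Epi-CE held 5 Mixl1, 4 Evx1 and 8 Lhx1 UMIs, and the 92 of Epi-CE-T held 4 Lhx1 and 7 Gsc UMIs.

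Mixl1 stood higher in the FALSE than in the TRUE barcodes of both NMP libraries. In Epi-NMP it was at 14.2 CPM in FALSE barcodes (11.7 to 17.2) and 7.73 CPM in TRUE ones, and in ES-NMP at 54.9 CPM in FALSE barcodes (43.4 to 68.6) and 15.9 CPM in TRUE ones.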

How the results depend on the processing

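No paired analysis was possible because each group is 1 library, and for the same reason no replicate could be left out. No direction of a called member reversed. The count of members past 2-fold was 3 in Epi-CE over ES-NMP in every setting and stayed at 5 or 6 in Epi-NMP over ES-NMP and in Epi-CE-T over Epi-CE, where it was 5 only among cells with T, added after seeing the data. In Epi-NMP over Epi-CE it was 3, and 1 with means of per-cell CPM or with cells from the 10th to the 90th percentile of depth, and 4 at 1.5-fold. With all barcodes it was 3, but with Gsc in place of Mixl1. For cells with T over those without, the ES-NMP count was 4, and 3 or 4 otherwise. The Epi-CE count was 2, and 4 unthinned, 4 at 1.5-fold and 1 with all barcodes from 4000 UMIs. The Epi-CE-T count was 1, and 0 thinned to 4000 UMIs, 0 with another draw, 0 with all barcodes, 2 unthinned and 4 with no minimum. The Epi-NMP count was 1, and 0 thinned to 4000 UMIs, 0 with another draw, 0 with T from 2 UMIs, and 2 unthinned, with all barcodes, with no minimum or at 1.5-fold. Leaving out naive pluripotent-like and neural-like ES-NMP cells, or Epi-CE-T cells of small clusters, was also added after seeing the data. The cause of these shifts was not tested.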
